A study of Mus musculus with 6 samples.

Results

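The Hox cluster genes are the 39 protein-coding mouse genes whose symbol is Hox followed by a, b, c or d and a number, chosen by symbol from the 21951 protein-coding genes of the GENCODE M21 annotation of mm10. They lie in 4 clusters, HoxA with 11 genes, HoxB with 10, HoxC with 9 and HoxD with 9. They were examined in peak lists from ATAC-seq, an assay that marks accessible chromatin by where the Tn5 transposase inserts. Naive CD4 T cells from the spleen of wild type (WT) C57BL6/J mice were activated with anti-CD3 and anti-CD28 and cultured for 5 days as Th2 cells (IL-4, IL-2 and anti-IFNγ), Th9 cells (the same with TGF-β1) or Th17 cells (IL-6, TGF-β1, IL-23 and IL-1β with anti-IFNγ, anti-IL-4 and anti-IL-2). Each of these 3 subsets had 2 libraries, replicates 1 and 3. The labels do not say whether replicates came from separate animals or cultures, so each p-value below measures only the spread between these libraries. Each library is a bulk population, in which fewer cells with an open site and a less open site in every cell cannot be told apart.

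Hox genes encode homeodomain transcription factors that give cells their position along the body axis, and within a cluster they lie in the order in which the embryo switches them on. In tissues that do not use them, Hox promoters are a textbook target of the Polycomb complexes. PRC2 methylates histone H3 at lysine 27, PRC1 binds this mark and compacts chromatin, and Trithorax group proteins oppose both. Many Hox promoters are CpG islands, a promoter type that is open in most cells. Several Hox genes are active in blood stem cells and progenitors and are turned down as T cells mature. Histone marks and RNA were not analysed here.

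The promoter sequences that follow show called and uncalled genes, paired in HoxA and HoxD. Each is the 200 bases before the start on the gene's own strand, 5′ to 3′, from the GRCm38.p6 reference (mm10), with every CG dinucleotide in capitals because CpG content is used as a promoter class below. Hoxa4 and Hoxd13 had the strongest peaks among the genes of their clusters called in all 6 libraries, passing over Hoxd8, whose stretch overlaps an annotated exon. Hoxa5, Hoxc12 and Hoxd10 had the highest CpG ratio among the genes of their clusters called in none.
Hoxa4: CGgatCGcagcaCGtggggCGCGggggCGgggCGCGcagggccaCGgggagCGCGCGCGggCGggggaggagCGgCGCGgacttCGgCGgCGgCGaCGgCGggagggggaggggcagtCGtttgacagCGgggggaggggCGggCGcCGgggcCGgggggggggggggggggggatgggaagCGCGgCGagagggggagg
Hoxa5: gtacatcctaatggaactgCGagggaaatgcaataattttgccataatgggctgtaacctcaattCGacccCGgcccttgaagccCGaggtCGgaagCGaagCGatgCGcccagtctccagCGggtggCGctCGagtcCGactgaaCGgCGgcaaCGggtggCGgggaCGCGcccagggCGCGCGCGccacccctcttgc
Hoxc12: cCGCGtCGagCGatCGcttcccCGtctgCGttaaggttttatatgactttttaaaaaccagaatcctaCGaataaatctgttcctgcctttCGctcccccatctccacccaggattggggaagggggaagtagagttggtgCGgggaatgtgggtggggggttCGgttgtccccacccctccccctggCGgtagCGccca
Hoxd13: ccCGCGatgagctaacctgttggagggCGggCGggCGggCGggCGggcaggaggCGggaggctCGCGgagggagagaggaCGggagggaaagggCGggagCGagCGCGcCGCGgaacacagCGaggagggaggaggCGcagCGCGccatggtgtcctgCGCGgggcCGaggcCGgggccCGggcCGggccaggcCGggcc
Hoxd10: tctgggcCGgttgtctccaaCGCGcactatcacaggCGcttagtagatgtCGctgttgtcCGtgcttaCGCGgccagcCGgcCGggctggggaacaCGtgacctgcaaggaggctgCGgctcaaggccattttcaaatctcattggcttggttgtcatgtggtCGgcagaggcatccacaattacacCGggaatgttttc

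Of these stretches, those of Hoxa4 (chr6:52191754-52191953, minus strand) and Hoxd13 (chr2:74668110-74668309, plus strand) belong to promoters with a peak in all 6 libraries, and they hold 32 and 28 CG dinucleotides. Those of Hoxa5 (chr6:52204588-52204787, minus strand), Hoxc12 (chr15:102936557-102936756, plus strand) and Hoxd10 (chr2:74691724-74691923, plus strand) belong to promoters without a peak in any library, and they hold 22, 13 and 14. The median over the 41525 starts of all protein-coding genes was 8, so all 5 stretches are above it.

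A smaller share of Hox promoters than of all promoters carried a peak in these T cells. A promoter was the window from 1000 bp before to 100 bp after any start of the gene in the GENCODE basic transcript set, and it was called in a library when a peak overlapped it by at least 1 bp. In Th9 replicates 1 and 3, 16 and 18 of the 39 Hox genes were called, against 65.6% and 64.7% of all protein-coding genes. The Th2 replicates had 14 and 20, against 65.5% and 66.9%, and the Th17 replicates 12 and 14, against 63.8% and 62.4%. Across the 6 lists, 9 Hox genes (23.1%) were called every time, against 58.7% of all protein-coding genes. No list had a peak at 19 Hox promoters (48.7%), against 28.0% of all genes. The other 11 (28.2%) were called in 1 to 5 libraries, against 13.3%. The number of Hox genes called in all 6 libraries changed with the starts, the window, the overlap required and the peak threshold. Their share stayed below that of all genes in each alternative for which all genes were also counted. When at least 200 bp of overlap were required, 6 Hox genes (15.4%) were called in all 6 libraries, against 54.8% of all genes. With all annotated starts, a choice made after seeing the data, 12 Hox genes (30.8%) were called in all 6 libraries, against 60.6% of all genes, and 17 (43.6%) in none, against 25.8%. The genes that joined those called in all 6 were Hoxa7, Hoxa10 and Hoxc5. With 2000 bp on either side of a start the count in all 6 libraries was 15 Hox genes (38.5%) against 62.8% of all genes, and among peaks of at least 2.2-fold enrichment it was 3 (7.69%) against 54.4%.

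**Figure D1:**
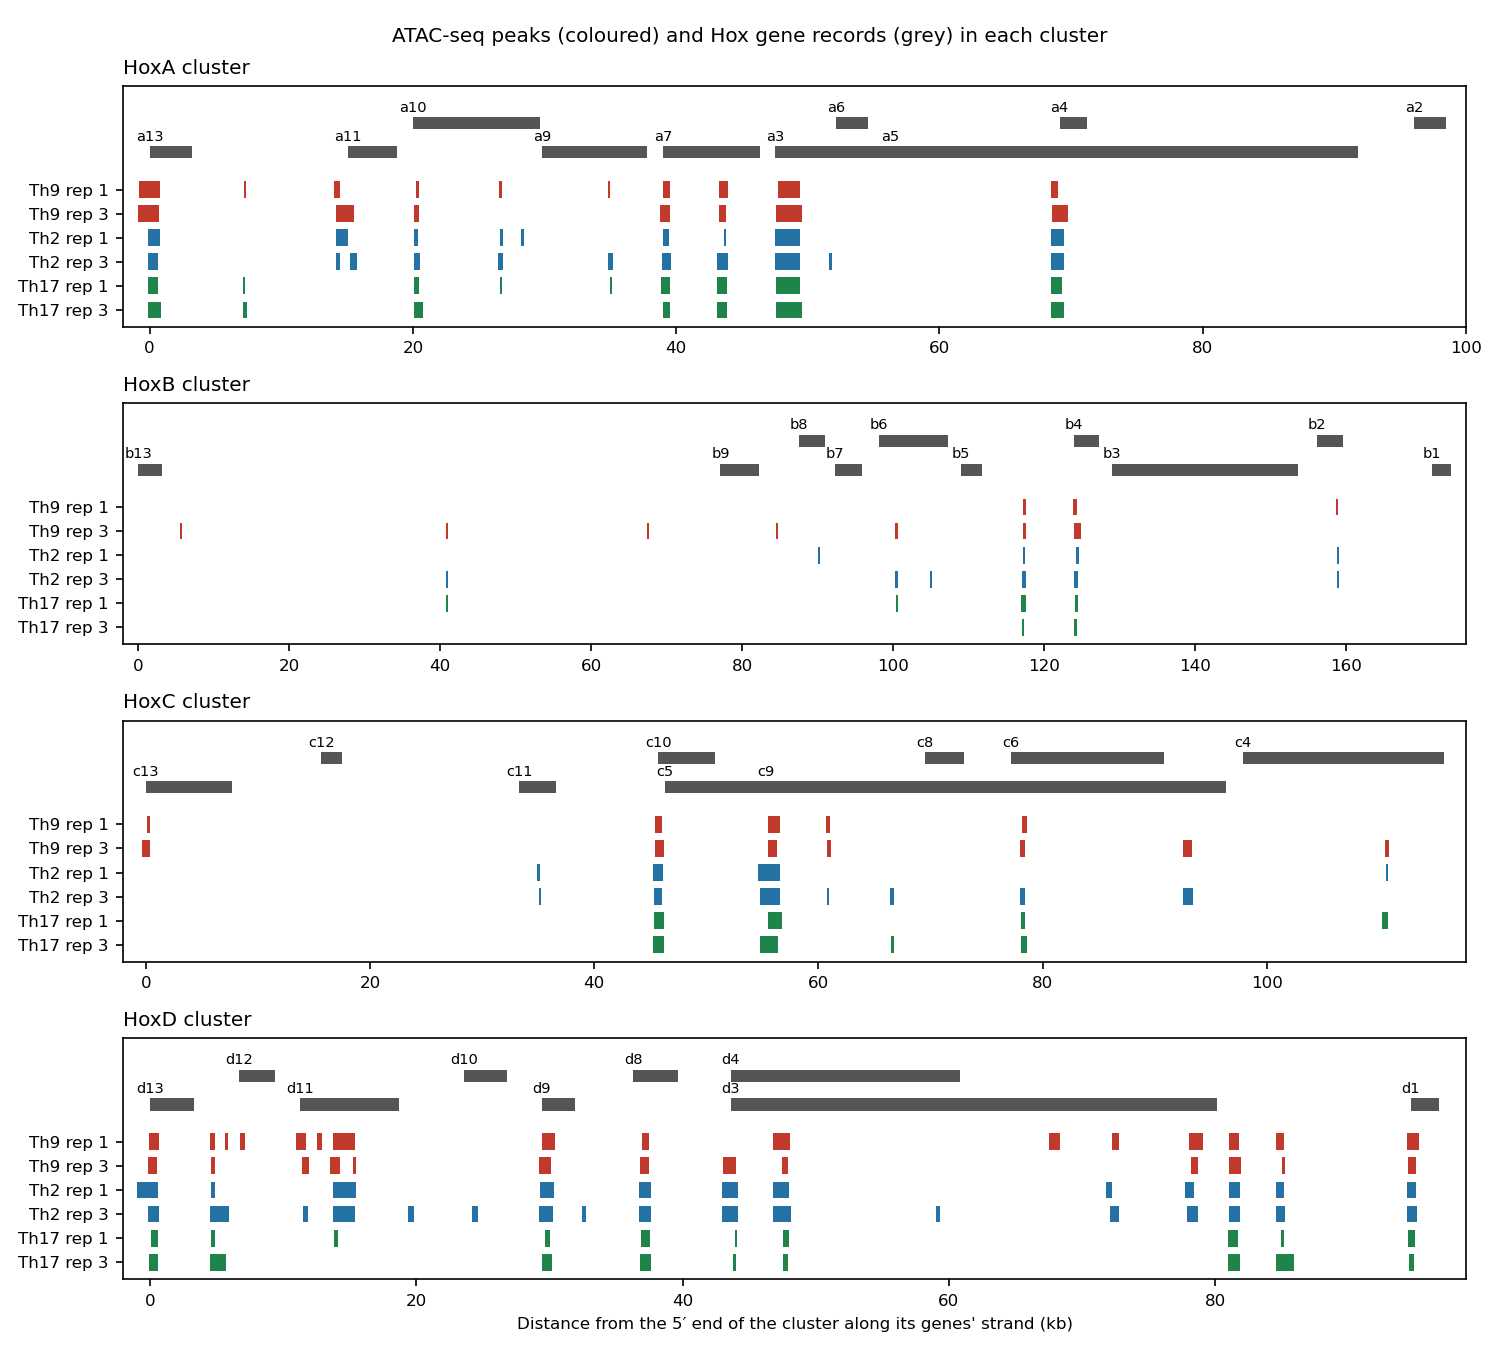
Peaks of each library (coloured bars; red Th9, blue Th2, green Th17) along the 4 Hox clusters, with Hox gene records in grey and each gene's letter and number at the start of its record; the horizontal axis is the distance in kb from the 5′ end of the cluster along the strand of its genes, and the HoxA panel ends after Hoxa2. HoxA and HoxD carry peaks at several starts in all 6 libraries, and HoxB has the fewest bases under peaks.

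The 4 clusters differed in their calls. HoxA had 4 genes called in all 6 libraries, 4 in some and 3 in none. HoxD had 3, 4 and 2, HoxC had 2, 2 and 5, and HoxB had 0, 1 and 9. Thus 9 of the 19 uncalled genes belong to HoxB, from its anterior genes (Hoxb1, Hoxb2 and Hoxb3) to its posterior genes (Hoxb9 and Hoxb13). Along the clusters, 3 of 8 genes in paralogue groups 1 to 3, 2 of 15 in groups 4 to 8 and 4 of 16 in groups 9 to 13 were called in all 6 libraries.

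Paralogues, the copies of one ancestral gene in different clusters, often differed in their calls. In group 1, Hoxd1 was called in all 6 libraries and Hoxb1 in none. In group 4, Hoxa4 was called in 6 libraries, Hoxb4 in 4, and Hoxc4 and Hoxd4 in none. In group 13, Hoxa13 and Hoxd13 were called in 6, Hoxc13 in 2 and Hoxb13 in none. Of the 13 groups, group 2 (Hoxa2 and Hoxb2) alone had no call in any library.

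**Figure D2:**
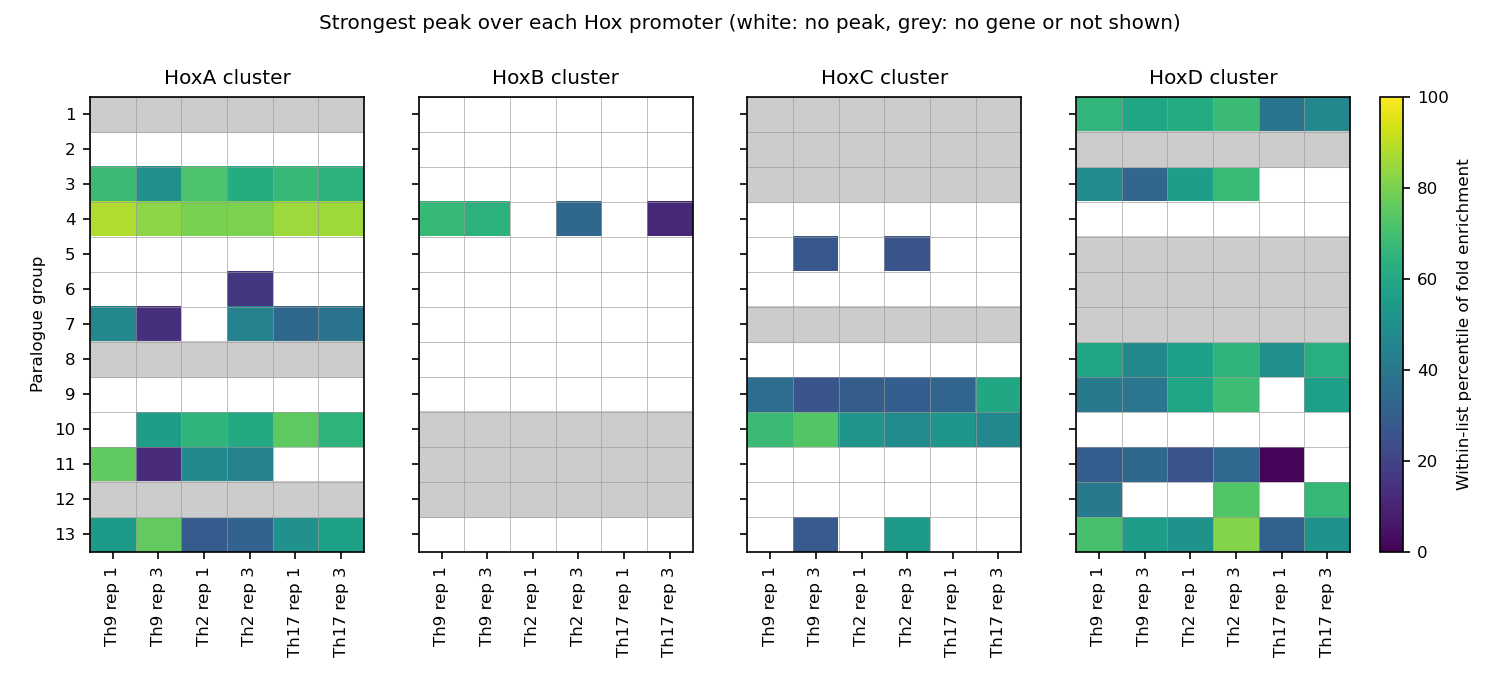
Within-list percentile of the fold enrichment of the strongest peak over each Hox promoter (colour scale, 0 to 100), with paralogue groups 1 to 13 as rows and the 6 libraries as columns, 1 panel per cluster; white is no peak and grey no gene of that number or a gene not shown. The brightest row is Hoxa4, and the HoxB panel has colour only at Hoxb4.

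The peak caller gives each peak a fold enrichment over background. As its range depends on the depth of a library, it was turned into a percentile among all peaks of the same list, 100 being the strongest. By this measure Hoxa4 had the strongest Hox promoter peak on average. At Hoxa4, a patterning gene of the neck and upper trunk, the percentile was 88.2 and 82.6 for Th9 (replicates 1 and 3, here and below), 80.1 and 80.3 for Th2, and 85.5 and 85.8 for Th17. Both Th2 libraries were the lowest at Hoxa4, and the ranges of Th9 and Th17 overlapped. A promoter peak that reached 5 in −log10 q in all 6 libraries was found at 2 Hox genes, Hoxa4 among them, against 51.5% of all genes.

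Hoxa3, which is needed to form the thymus and parathyroid, was at 68.4 and 50.1 for Th9, 71.8 and 61.8 for Th2, and 67.1 and 64.2 for Th17. Its only start in the transcript set used lies upstream of Hoxa5 and Hoxa6, next to Hoxa7, and its call concerns that place. Hoxa13, which shapes digits and the genital tract, was at 54.6 and 75.9 for Th9, 29.2 and 31.4 for Th2, and 50.5 and 56.7 for Th17. The Th2 libraries were the lowest for Hoxa13.

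In HoxC, Hoxc10, a gene of the lumbar region and hindlimb, was at 68.3 and 73.1 for Th9, 52.0 and 48.4 for Th2, and 52.4 and 46.7 for Th17. Both Th9 libraries lay above the 4 others, which overlapped. Hoxc9, which specifies thoracic motor neurons, was at 36.0 and 26.4 for Th9, 29.6 and 29.8 for Th2, and 32.7 and 59.7 for Th17. Its subsets overlapped, and its lowest library was in Th9. From the start of its gene record alone, Hoxc9 was called in 3 libraries.

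In HoxD, Hoxd1, which acts in pain-sensing neurons, was at 65.7 and 58.9 for Th9, 61.5 and 68.0 for Th2, and 38.7 and 46.3 for Th17. Hoxd13, a digit patterning gene, was at 70.7 and 55.8 for Th9, 51.2 and 81.4 for Th2, and 31.2 and 50.9 for Th17. For both genes the Th17 libraries were the lowest, narrowly so for Hoxd13. The Hoxd13 call in Th17 replicate 1 rests on 30 bp of overlap, and Hoxd13 was called in 3 libraries when at least 200 bp were required. Hoxd8, a trunk gene, was at 58.9 and 47.4 for Th9, 56.6 and 65.1 for Th2, and 50.2 and 63.2 for Th17, with overlapping subsets. The Hoxd8 calls rest on inner starts, since the outermost start of its gene record had a peak in no library, and on overlaps of 25 to 227 bp.

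Over the 9 genes called in all 6 libraries, both Th9 percentiles lay above the 4 others for 2, Hoxc10 among them, against 17.6% of all genes called in all 6 libraries. Both Th2 percentiles lay below the 4 others for 2 (Hoxa4 and Hoxa13), against 17.9%, and both Th17 percentiles for 2 (Hoxd1 and Hoxd13), against 9.01%. The opposite directions had 0 genes each, against 7.37% for Th9 below, 8.91% for Th2 above and 5.55% for Th17 above. With 9 genes, nothing is read from these counts.

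Calls in the same 2 subsets and in no other library were found at Hoxa11 and Hoxd3, both called in the Th9 and Th2 libraries and not in Th17 (2 of 39, 5.13%, against 0.847% of all genes). Hoxa11, a gene of the forearm and uterus, was at 75.7 and 11.7 for Th9 and 47.9 and 44.4 for Th2, and no Th17 peak was found even within 2000 bp of its start. The Th9 replicates span most of the scale, and only 2 of the 4 peaks reached 2.2-fold. Hoxd3, a cervical patterning gene, was at 48.1 and 33.2 for Th9 and 56.0 and 67.5 for Th2. Its pattern depended on the edge of the window: both Th17 libraries had a peak at the same place just beyond it, at percentiles 20.2 and 36.3, and with 2000 bp on either side Hoxd3 was called in all 6 libraries. In Th9 replicate 1 the call came from a different, inner start. No Hox gene was called in the libraries of a single subset alone, against 0.269% of all genes for Th9, 0.383% for Th2 and 0.228% for Th17. None had a pattern of Th2 and Th17 only (0.228% of all genes) or of Th9 and Th17 only (0.041%).

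The 9 remaining genes were called in 1 to 5 libraries in no pattern that followed the subsets. Hoxa7 was at 46.3 and 14.02 for Th9, 44.2 in Th2 replicate 3 alone, and 33.4 and 38.5 for Th17. Th2 replicate 1 had a peak past the window at 54.3, the highest of the 6, and Hoxa7 was called in all 6 libraries with 2000 bp on either side of a start or from the start of its gene record. Hoxa10, a gene of the uterus that also acts in blood progenitors, was at 56.1 in Th9 replicate 3 alone, 65.3 and 61.0 for Th2, and 75.3 and 65.1 for Th17. Its calls rest on 27 to 47 bp of overlap, and none was left when at least 200 bp were required. Th9 replicate 1 had a peak past the Hoxa10 window at 45.5, and Hoxa10 was called in all 6 libraries with 2000 bp on either side of a start.

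Hoxb4, known for expanding blood stem cells, was the only HoxB gene with a call. It was at 67.2 and 64.1 for Th9, 33.9 in Th2 replicate 3 alone and 11.5 in Th17 replicate 3 alone, with overlaps of 24 to 151 bp. A peak lay at chr11:96318217-96319194 in all 6 libraries, but it starts inside the gene, just past the window, in the other 2. The Th9 values were the highest, and over that whole region the percentiles were 67.2 and 64.1 for Th9, 41.3 and 33.9 for Th2, and 26.1 and 11.5 for Th17, without overlap. This region was singled out after its values were seen.

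In HoxD, Hoxd9 was at 40.5 and 39.3 for Th9, 58.6 and 68.9 for Th2 and 56.4 in Th17 replicate 3 alone. Hoxd11, a forearm gene, was at 29.8 and 33.8 for Th9, 25.6 and 34.2 for Th2, and 1.46 in Th17 replicate 1 alone. From the start of its gene record alone, Hoxd11 was called in 1 library, and among peaks of at least 2.2-fold also in 1. Hoxd12, of the digits, was called at 40.5 in Th9 replicate 1, 72.8 in Th2 replicate 3 and 66.6 in Th17 replicate 3. The Hoxd12 and Hoxd9 calls depended on the edge of the window, since both genes were called in all 6 libraries with 2000 bp on either side of a start. Upstream of Hoxd12 a region at chr2:74672788-74674214 had a peak in all 6 libraries, at 62.9 and 63.9 for Th9, 70.9 and 72.8 for Th2, and 70.5 and 66.6 for Th17, and the 3 Hoxd12 calls came from 40 to 202 bp of overlap. At Hoxd9, the Th17 replicate 1 peak lay past the window, at 24.4.

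The rest were weak or called in 1 library per subset. Hoxc5 was at 27.2 in Th9 replicate 3 and 26.0 in Th2 replicate 3, Hoxc13, a hair gene, at 28.7 and 54.6 in the same libraries, and Hoxa6 at 15.9 in Th2 replicate 3 alone. The distant start of the Hoxc5 gene record, which lies inside Hoxc10, was called in all 6 libraries, so Hoxc5 calls depend on which start is used.

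Among the genes without a call, Hoxa2 sets the identity of the second pharyngeal arch, Hoxa5 acts in lung and trunk, and Hoxa9 is a gene of blood progenitors and leukaemia. The other uncalled genes were Hoxb1, Hoxb2, Hoxb3, Hoxb5, Hoxb6, Hoxb7, Hoxb8, Hoxb9 and Hoxb13, Hoxc4, Hoxc6, Hoxc8, Hoxc11 and Hoxc12, and Hoxd4 and Hoxd10. With all annotated starts Hoxd4 was called in 3 libraries and Hoxc6 in 2. With 2000 bp on either side of a start, 12 Hox genes were still uncalled, against 20.4% of all genes. A missing peak means that no region passed the caller's threshold, not that the promoter was shown to be closed.

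CpG content, which the choice of genes did not use, divided the Hox promoters, and within the CpG-rich class they still differed from other genes. A promoter was called CpG-rich when the ratio of observed to expected CpG over the 1000 bp before and 100 bp after a start was at least 0.6 and the GC content at least 50%. The median ratio was 0.541 over the Hox genes and 0.471 over all protein-coding genes. Of the 17 CpG-rich Hox promoters, 8 (47.1%) were called in all 6 libraries, against 93.3% of all 6367 CpG-rich promoters. Of the same 17, 6 (35.3%) were called in none, against 1.32%, which is 84 genes. The other 3 (17.6%) were called in some, against 5.34%. The 6 without a call were Hoxa5, Hoxa9, Hoxb5, Hoxb7, Hoxb9 and Hoxd10, and they thus form 6 of the 84.

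Of the 22 other Hox promoters, 1 (Hoxc10) was called in all 6 libraries, against 44.6% of the other promoters of all genes, 8 in some, against 16.6%, and 13 in none, against 38.9%. Therefore 8 of the 9 Hox genes called in all 6 libraries were CpG-rich. By cluster, CpG-rich promoters called in all 6 libraries were 4 of 8 in HoxA, 0 of 3 in HoxB, 1 of 1 in HoxC and 3 of 5 in HoxD. The lack of calls in HoxB thus included its CpG-rich promoters.

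**Figure D3:**
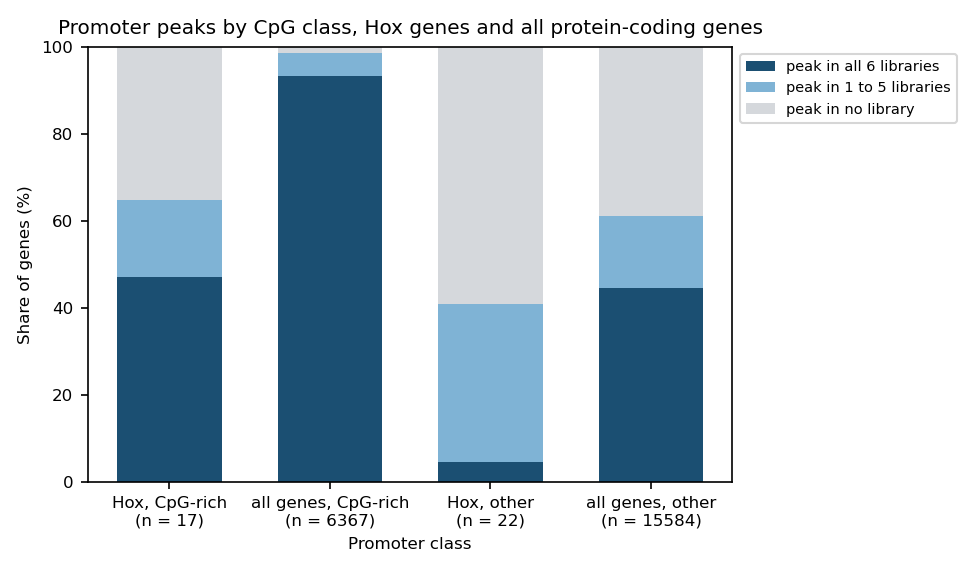
Share of genes (vertical axis, %) with a promoter peak in all 6 libraries, in 1 to 5 or in none, for CpG-rich and other promoters of the Hox genes and of all protein-coding genes; the number of genes is under each bar. Among CpG-rich promoters the share without a peak is 35.3% for Hox genes and 1.32% for all genes.

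Where Hox promoters were called, their peaks were weaker than those of most called promoters. The median percentile of called Hox promoters was 62.3 and 48.7 for Th9, 56.3 and 57.8 for Th2, and 50.3 and 58.2 for Th17. Over all called promoters it was 93.2 and 92.04 for Th9, 91.6 and 90.8 for Th2, and 93.01 and 92.05 for Th17. In each of the 6 libraries 0 of the 12 to 20 called Hox promoters were above the median of all called promoters. The strongest Hox peak of a library was that of Hoxa4 in Th9 replicate 1 and both Th17 libraries. When only peaks that reached a fold of 4 were counted, Hoxa4 was left in 5 libraries and Hoxd13 in 1, and 0 Hox genes were called in all 6 libraries, against 40.7% of all genes, and 36 in none, against 47.1%.

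**Figure D4:**
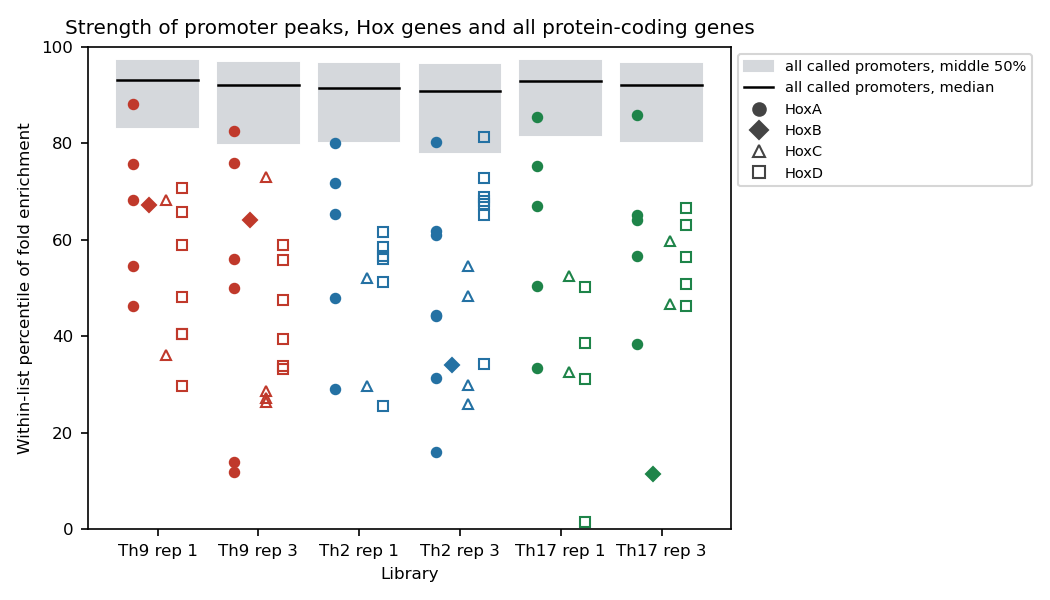
Within-list percentile of each called Hox promoter (points, marked by cluster, with 1 gene not shown) in each library; the grey box is the middle 50% and the line the median of all called protein-coding promoters. All points shown lie below the median line, which is at 90.8 to 93.2.

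The number of called Hox promoters was compared between the subsets. It was 16 and 18 for Th9, 14 and 20 for Th2, and 12 and 14 for Th17, with means of 17 ± 1.41, 17 ± 4.24 and 13 ± 1.41 (SD, n = 2 each). The Th2 replicates spanned the Th9 values and reached the higher Th17 value. Libraries of different subsets differed by 0.333 genes more on average than libraries of the same subset, which was within the spread between libraries (p = 0.6, exact permutation test, one-sided, with 15 ways to pair the libraries). The smallest p this design can give is 0.0667.

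The share of each cluster's bases under peaks gives a measure that does not use promoter windows. Each cluster was taken between the outer ends of its Hox gene records, so bases upstream of its 5′-most gene are not counted. HoxA (chr6:52155590-52260880, 105 kb) was covered to 6.98% and 7.46% for Th9, 6.78% and 7.94% for Th2, and 6.36% and 6.45% for Th17. HoxB (chr11:96194316-96368256, 174 kb from Hoxb13 to Hoxb1) was covered to 0.688% and 1.51% for Th9, 0.623% and 1.17% for Th2, and 0.960% and 0.384% for Th17. HoxA was thus narrow in its spread and HoxB below every HoxA value.

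HoxC (chr15:102921103-103036852, 116 kb from Hoxc13 to Hoxc4) was covered to 2.35% and 3.35% for Th9, 2.83% and 3.87% for Th2, and 2.65% and 2.94% for Th17. HoxD (chr2:74668310-74765142, 96.8 kb from Hoxd13 to Hoxd1) was covered to 12.3% and 7.91% for Th9, 10.5% and 14.5% for Th2, and 4.52% and 6.99% for Th17. In percentage points HoxD varied most between libraries, and relative to its mean HoxB did.

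The means over the 6 libraries were 9.47% ± 3.69 in HoxD, 6.995% ± 0.608 in HoxA, 3.00% ± 0.540 in HoxC and 0.889% ± 0.409 in HoxB (SD, n = 6). Within a library, HoxA exceeded HoxB by 6.11 percentage points ± 0.446 (SD) and HoxC by 3.998 ± 0.382, and HoxB was below HoxC by a mean difference of −2.11 ± 0.448. HoxB and HoxC were also below HoxD, with mean differences of −8.58 ± 3.68 and −6.47 ± 3.52. Each of these 5 differences had the same sign in 6 of 6 libraries (adjusted p = 0.0375 each, two-sided exact permutation test over 64 sign patterns with Benjamini-Hochberg adjustment over the 6 pairs of clusters; the smallest unadjusted p is 0.03125). HoxA and HoxD were not told apart, with a mean difference of −2.47 ± 3.27, negative in 5 of 6 libraries (exact permutation p = 0.156). At a fold enrichment of at least 4, where HoxB and HoxC had no peak left, none of the 6 comparisons passed.

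**Figure D5:**
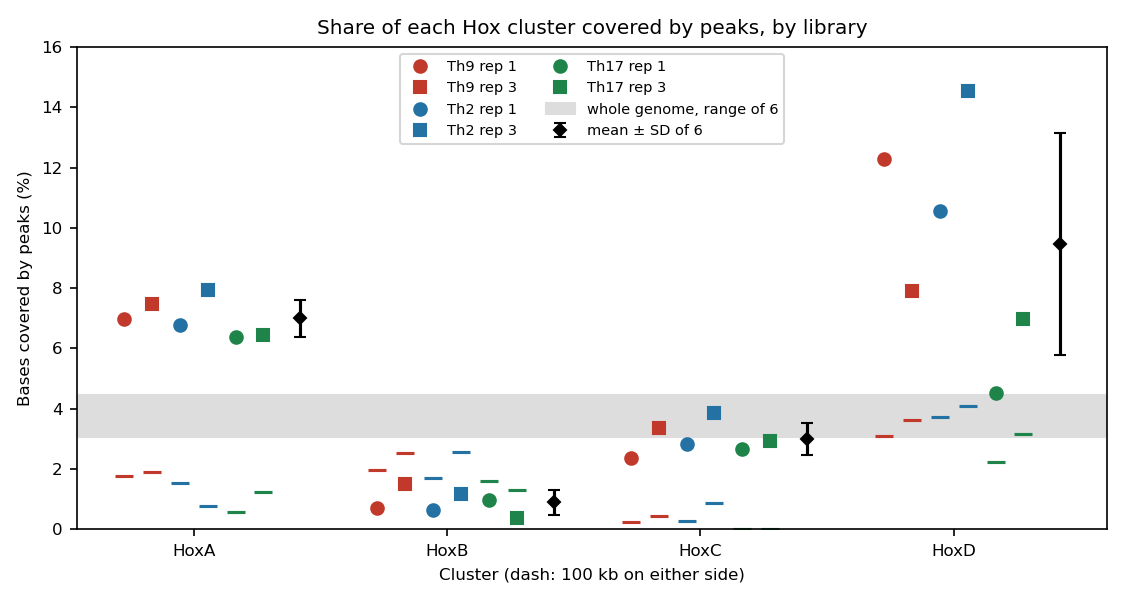
Share of each cluster's bases under peaks (vertical axis, %) by library (circles, replicate 1; squares, replicate 3; red Th9, blue Th2, green Th17), with the mean and SD of the 6 libraries in black, the 100 kb on either side as dashes and the range of the whole genome as a grey band. HoxB lies below the band, HoxA and HoxD above it, and HoxC within or below it.

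Set beside the genome as a whole, of which peaks covered 3.06% to 4.46% per library, HoxA was covered 1.52 to 2.44 times as much, HoxD 1.24 to 3.54 times, HoxC 0.608 to 1.10 times and HoxB 0.111 to 0.495 times. Hox clusters are dense in starts, so they were also ranked among the 132 genomic bins of 100 kb that hold the starts of at least 8 protein-coding genes. HoxB was covered more than 1.52% to 4.55% of these bins, HoxC more than 6.06% to 10.6%, HoxA more than 20.5% to 36.4% and HoxD more than 16.7% to 83.3%. HoxB and HoxC were thus near the bottom of these bins in every library. With 10 genes over 174 kb and 9 over 116 kb, they hold fewer starts per kb than such a bin must. The bins are therefore not matched to HoxB and HoxC in density.

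Against the 100 kb on either side, the covered share was higher in HoxA by 5.71 percentage points ± 0.758, in HoxC by 2.70 ± 0.326 and in HoxD by 6.15 ± 3.23, and lower in HoxB, with a difference of −1.05 ± 0.270 (SD, n = 6 libraries, the same sign in 6 of 6, adjusted p = 0.03125 each, two-sided exact permutation test). The HoxB and HoxC differences turned with the size of the flanks: with 50 kb on either side HoxB was higher by 0.768, and with 500 kb HoxC was lower, at −2.29 (6 of 6 libraries and exact permutation p = 0.03125 for each). They therefore describe those neighbourhoods and not the clusters alone.

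Between the subsets, HoxD had the largest spread, with 10.1% ± 3.10 covered in Th9, 12.5% ± 2.83 in Th2 and 5.75% ± 1.75 in Th17 (SD, n = 2 each). Both Th17 values were below the 4 others. The difference was within what pairing the libraries at random gives (p = 0.333, adjusted p = 0.667, one-sided exact permutation test over 15 arrangements), and the smallest possible p is 0.0667. Among peaks of at least 2.2-fold the HoxD values were 11.5% and 4.84% for Th9, 6.91% and 9.42% for Th2, and 1.54% and 6.36% for Th17, and the subsets overlapped. HoxA gave p = 0.333 (adjusted p = 0.667), and HoxB and HoxC gave p = 1.0 each in the same exact test.

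Peaks outside the Hox promoters filled part of the clusters. When overlapping peaks of the 6 lists were joined, the clusters held 53 regions, 14 in HoxA, 10 in HoxB, 9 in HoxC and 20 in HoxD. Of these, 19 (35.8%) had a peak in all 6 libraries, against 21.4% of the 236017 regions of the genome, and 15 (28.3%) in 1 library, against 37.2%. Hox promoters held 22 of the 53 regions and 14 of the 19, and 5 of the 19 lay elsewhere. The regions of the genome were not split by promoter, so the shares are not matched for promoter content.

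The strongest of the 5 was in HoxD at chr2:74715101-74716443, at percentiles 85.6 and 85.5 for Th9, 84.9 and 84.0 for Th2, and 85.4 and 86.7 for Th17. It covers the start of Hoxd3os1, an antisense non-coding RNA, and it was stronger in each library than all HoxD promoter peaks. A second HoxD region, at chr2:74749275-74750221 just past the end of Hoxd3, was at 87.0 and 72.7 for Th9, 66.4 and 60.6 for Th2, and 85.1 and 83.0 for Th17. There the Th2 libraries were the lowest. In HoxA, chr6:52221269-52222140, at the outermost start of the Hoxa7 gene record, which is not in the transcript set used, was at 86.1 and 77.1 for Th9, 74.2 and 70.3 for Th2, and 74.2 and 83.3 for Th17.

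The other 2 were weaker. A HoxD region at chr2:74752846-74754251, between Hoxd3 and Hoxd1, ranged from 19.3 to 51.1, and a HoxB region at chr11:96311277-96311975, upstream of Hoxb4, ranged from 6.01 to 68.2. For the HoxB region both Th17 libraries were the lowest, at 19.7 and 6.01.

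Long stretches held no peak in any library. In HoxA the longest was 31.65 kb, which ends at the Hoxa4 peak, and it contains the whole of Hoxa2. In HoxC it was 34.5 kb, from Hoxc13 to Hoxc11, and it contains the whole of Hoxc12. In HoxB it was 35.04 kb, in the space between Hoxb13 and Hoxb9 that holds no other Hox gene, and in HoxD it was 10.9 kb. Merged over all 6 libraries, peaks touched 19.2% of HoxD, 11.3% of HoxA, 5.72% of HoxC and 2.27% of HoxB.

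Most non-coding genes in the clusters had no peak at their starts, as in the annotation as a whole. Of 43, 5 (11.6%) were called in all 6 libraries, against 12.0%, 10 (23.3%) in some, against 15.6%, and 28 (65.1%) in none, against 72.4%. Of the 5, Gm28793, Hoxd3os1 and Gm14426 are in HoxD. Hotair, the HoxC RNA studied for its link to PRC2, was called in none, nor were Mir10a, Mir10b, Mir196a-1, Mir196a-2 and Mir196b, microRNAs of the clusters that target Hox messages. Other microRNAs of the clusters were called in some libraries, Mir615 of HoxC in 2 and Gm44463 of HoxD in 1. The microRNA windows were drawn at the annotated hairpin, which is not the start of the primary transcript.

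Most genes whose products act with or upon Hox genes had promoter peaks in all 6 libraries. All 9 genes for the TALE partners of Hox proteins (the Meis, Pbx and Pknox genes) were called in all 6 libraries, against 58.7% of all genes. So were all 11 PRC2 genes, Ezh2, Eed and Suz12 among them, and all 19 PRC1 genes. Of these, 4 TALE, 8 PRC2 and 16 PRC1 genes had CpG-rich promoters. Over all genes, 93.3% of CpG-rich promoters were called in all 6 libraries. Of 12 Trithorax and H3K27 demethylase genes, 10 were called in all 6 libraries, Kdm6b in 1 and Uty in 0. Of 51 homeobox genes outside the clusters, 19 (37.3%) were called in all 6 libraries, 20 in some and 12 (23.5%) in none, and among the 21 CpG-rich ones 13 and 2. Those called in some libraries include Evx1 (2 libraries), next to HoxA, and Evx2 (1 library), next to HoxD, then Gbx1 (4), Mnx1 (2), Meox2 (5), Gsx2 (4), Cdx2 (3), Dlx4 (3), Dlx5 (4) and Lhx1 (2). Of the 51, Irx5 had the strongest peaks, at percentiles 92.7 to 94.6. The highest value of any other was 84.3, at Dlx6, so peaks weaker than those of most called promoters were not particular to the Hox genes.

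The lists held 100317 to 142213 peaks per library. Defining genes of T cells were called in all 6 libraries for 5 of 6, with Cd4 in 4 libraries. Of 4 B cell genes 0 were called in all 6 libraries, as of 4 myeloid genes (Cd14 in 3), while of 3 erythroid genes Hbb-bt was called in 6 and Gata1 and Klf1 in 0. The 4 stem and progenitor genes Kit, Meis1, Flt3 and Cd34 were all called in all 6 libraries, and their part in the Hox calls was not tested. Il13 was called in the Th2 libraries alone, Il17f in the Th17 libraries alone, and Il4 and Il9 in the Th9 and Th2 libraries. Il4 was at percentiles 89.5 and 92.3 for Th9 and 87.8 and 88.3 for Th2. Il9 was at 88.6 and 90.7 for Th9 and lower for Th2, at 37.1 and 44.4. The paper describes the Il9 promoter peak as entirely missing from the other subsets. The weak Th2 calls of Il9 differ from that description, and the reason was not tested. Il17a was called in 3 libraries, and Gata3 in all 6.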

How the data were processed

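ATAC-seq libraries (2 each of Th9, Th2 and Th17 cells) were grouped by the titles in the labels. The authors trimmed reads (Trim Galore 0.4.3), aligned them to mm10 with Bowtie2, removed duplicates (Picard), mitochondrial and poorly mapped reads, and called broad peaks in each library with MACS2 2.1.0, without an input control. Each deposited list gives a fold enrichment (a ratio), a −log10 p-value, a −log10 q-value and a score. The score was not used. Without read counts the depth is unknown. The lowest fold of a list was 1.71 to 2.11, so weak peaks were kept in some lists and not in others.

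Peaks were overlapped with starts of GENCODE M21 basic transcripts (Python 3.11.15, numpy 2.4.6, pandas 2.3.3), and CpG was read from GRCm38.p6 for 21938 genes; the 13 others were counted as not CpG-rich. Code was tested on simulated data. Values in every library are given for the Hox genes called in any library, with some items not reported here. From other lists, genes called in some libraries are named, up to 10 in list order. Stretches overlapping an exon were not printed (Hoxd8). Hoxb8 and Hoxb5 were also passed over, and no HoxB stretch is shown. The members, lists and comparisons were chosen with earlier results of these data known. Alternatives were stricter or equal-length lists, other windows, overlaps, spans and flanks, a replicate block and leaving out each library. Using all annotated starts, and HoxB without Hoxb13, were chosen after seeing the data.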

Additional observations from a re-analysis of the deposited data

How the results depend on the processing

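The 5 called differences between clusters kept their direction under all alternatives run except a fold enrichment of at least 4, under which HoxB minus HoxC was 0.0. At that fold HoxA minus HoxB and HoxA minus HoxC were 1.34 each, HoxB minus HoxD and HoxC minus HoxD −1.26 each, and HoxA minus HoxD turned to 0.0801, all above an adjusted p of 0.05. At a −log10 q of at least 5, HoxA minus HoxD turned to 0.656 and HoxB minus HoxC was −0.351 and no longer called.

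The count of Hox genes called in all 6 libraries was 2 at a −log10 q of at least 5, 0 at a fold of at least 4, 3 at a fold of at least 2.2 and 15 with 2000 bp on either side of a start; that of genes called in none was 36 at a fold of at least 4 and 12 with 2000 bp. The difference in called promoters between subsets turned to −1.67 at a −log10 q of at least 5 and to −0.167 at a fold of at least 2.2.

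Against the flanks, the differences in the order HoxA, HoxB, HoxC and HoxD were 3.66, −1.42, 0.340 and 1.16 with a minimum −log10 q of 5 and 1.17, −0.383, 0.0 and −0.393 at a fold of at least 4, none of them called; at a fold of at least 2.2 HoxD was 3.95 and not called. HoxB turned to 0.768 with flanks of 50 kb and HoxC to −2.29 with 500 kb.

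Between subsets, where no result was called, HoxA turned to −0.212 at a fold of at least 2.2, to −0.172 with lists of equal length and to −0.0488 relative to the genome. At a fold of at least 2.2 HoxB turned to 0.263, HoxC to 0.0210 and HoxD to −0.484; HoxD also turned to −0.350 at a −log10 q of at least 5 and to −0.255 at a fold of at least 4.

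The labels number the replicates 1 and 3 in each subset. The deviations of equally numbered libraries correlated by 0.0976, 0.0578 and 0.0295 over 12886 genes. Such correlations cannot decide whether equally numbered libraries share an animal or culture, and the labels do not say. The subset tests above did not pair libraries by number. With the replicate number as a block, exact permutation p was 0.667 for called promoters (difference 0.333) and 0.333, 1.0, 1.0 and 0.5 for HoxA, HoxB, HoxC and HoxD (differences 0.204, −0.182, −0.152 and 1.204), where 0.167 is the smallest possible.

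Leaving out each library in turn gave 9 to 10 genes called in all that remained, 19 to 20 called in none, and a difference in called promoters of −1.0 to 2.5. HoxA minus HoxB ranged from 5.97 to 6.25, HoxA minus HoxC from 3.87 to 4.09, HoxA minus HoxD from −3.33 to −1.64, HoxB minus HoxC from −2.20 to −1.99, HoxB minus HoxD from −9.58 to −7.62 and HoxC minus HoxD from −7.39 to −5.63. Against the flanks the ranges were 5.42 to 5.81 for HoxA, −1.14 to −0.984 for HoxB, 2.64 to 2.81 for HoxC and 5.29 to 6.92 for HoxD, and between subsets −0.114 to 0.680, −0.292 to −0.000719, −0.384 to 0.127 and −0.364 to 2.30. With 5 libraries the smallest p is 0.0625, so no paired difference can pass there.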
